A study of Homo sapiens with 6 samples.

Results

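The 38 protein-coding genes examined here lie in the interval of chromosome 22q11.2 that is lost in the 22q11.2 deletion. They were taken by symbol from the gene table of the study, and all 38 were found among its 26485 gene names. In GENCODE release 44 on hg38 they run from *DGCR6* to *SLC7A4* over chr22:18906028-21032840, which is 2.13 Mb. RNA-seq was performed on HEK293, an established line of human embryonic kidney cells, in 3 cultures with knockdown of the lncRNA *HSALNG0134318* and 3 control cultures. The labels give the knockdown cultures as KD-1, KD-4 and KD-5 (replicates 1, 2 and 3) and the control cultures as NC-10, NC-11 and NC-1 (replicates 1, 2 and 3). The control genotype is given as WT, and what these cultures received was not given in the sources used here. The knockdown was transient and used a mixture of siRNAs and antisense oligonucleotides. All values come from a single cell line, and the table has no row for *HSALNG0134318*, so the extent of its knockdown could not be read from these libraries. Control replicate 2 stood apart from the other cultures for many of these genes, and values without it are given where it decides a result.

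The 22q11.2 interval is bounded by blocks of near-identical sequence, the low copy repeats A to D, which mispair at meiosis and delete or duplicate what lies between them. Carriers of the deletion can have heart defects, a small thymus, palatal clefts, kidney and urinary tract malformations and psychiatric illness. *TBX1*, a T-box transcription factor of the pharyngeal arches, lies between repeats A and B, and *CRKL*, an adaptor that links tyrosine kinases to small GTPases, lies between C and D and has been linked to the kidney defects of the deletion. In the order of the chromosome, 25 members lie between A and B, 4 between B and C and 9 between C and D. *HSALNG0134318* lies on the same chromosome arm, beyond *SLC7A4*.

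*CRKL* fell on knockdown, by 0.57 on the log2 scale, and was the single member called among 29 that were tested. A member was called when its Benjamini-Hochberg adjusted p over all 14877 genes tested was under 0.05 in edgeR's quasi-likelihood test, with no minimum fold. No member was called higher by edgeR, DESeq2 or limma-voom. Over all genes tested, 4.64% were called lower and 5.40% higher, so 1 member lower of 29 (3.45%) is near the background and is no result about the interval as a group. At an unadjusted p under 0.05, 3 members were lower (*CRKL*, *RTN4R* and *GNB1L*) and 0 higher, while 26.9% of all genes passed in either direction. The median log2 fold change was -0.05 over the 29 members and -0.02 over all genes tested. The median size of the change was 0.11 for the members and 0.20 for all genes tested.

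**Figure D1:**
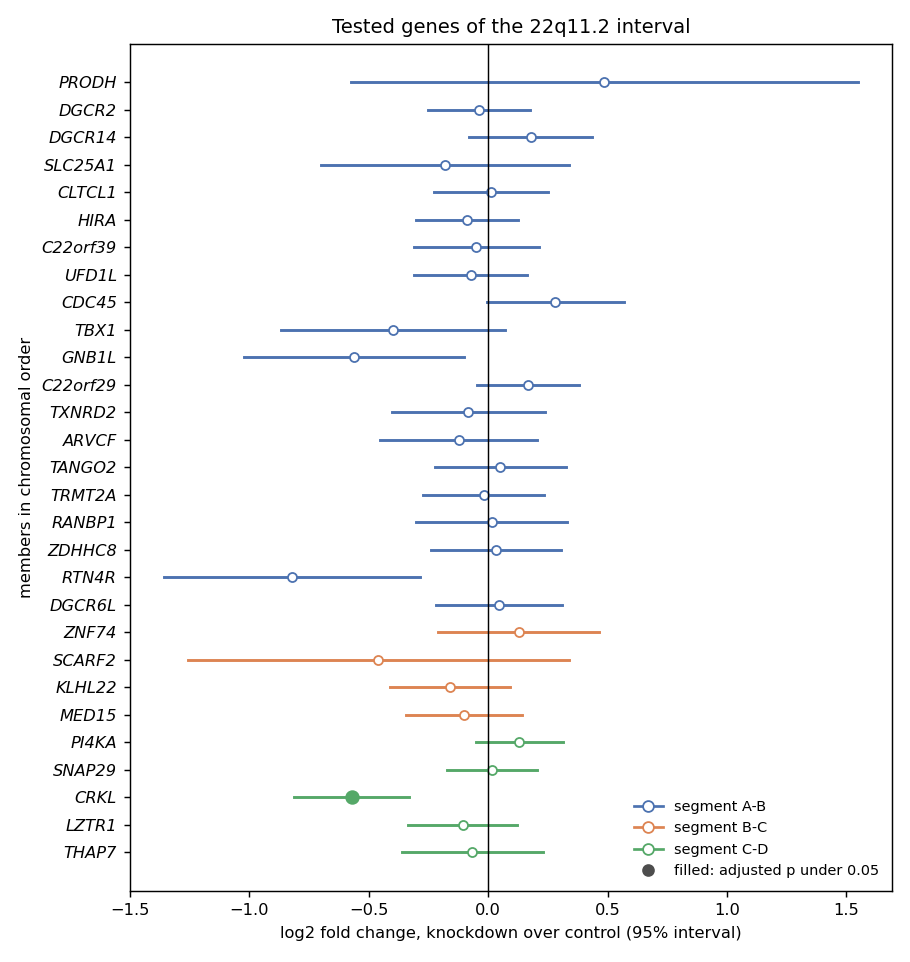
The log2 fold change of knockdown over control is plotted for the 29 tested members in chromosomal order, with bars for the 95% interval and colors for the segments between low copy repeats. *CRKL* is the filled point at -0.57, and 25 of the 29 intervals lie within a 2-fold change in either direction.

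Most intervals were narrow enough to bound the change. For 22 of 29 members the whole 95% interval lay within a 1.5-fold change either way, and for 25 within 2-fold. Those that reached beyond 2-fold were *PRODH*, *GNB1L*, *RTN4R* and *SCARF2*. Values of the knockdown and control cultures did not overlap for 4 members, *CRKL* and *GNB1L* on the low side and *C22orf29* and *PI4KA* on the high side, which is 13.8% of the members beside 32.2% of all genes tested. By segment, the 20 tested members between A and B had a median log2 fold change of -0.03, the 4 between B and C of -0.13, and the 5 between C and D of -0.07. These ranges overlapped, from -0.82 to 0.49 between A and B and from -0.57 to 0.13 between C and D.

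*CRKL* (ENSG00000099942, plus strand, chr22:20917407-20953747) is made of SH2 and SH3 domains and carries signals from receptors and integrins to RAPGEF1 and DOCK1. Its normalized counts, that is counts scaled to a common library size, were 2155, 2242 and 2378 in knockdown replicates 1 to 3 and 3554, 3713 and 2805 in control replicates 1 to 3. Every knockdown culture lay below every control culture, and control replicate 3 was the nearest to the knockdown cultures. The group means were 2258 ± 112 and 3357 ± 485 (SD, n = 3 each), a fall of 32.7% in the fit. Its log2 fold change of -0.57 had a standard error (SE) of 0.11, a 95% interval from -0.81 to -0.33 and an edgeR adjusted p = 0.0087. The call was lost without knockdown replicate 1 (edgeR adjusted p = 0.054) and kept under the other 12 alternatives. Without control replicate 2 the log2 fold change was -0.49 (edgeR adjusted p = 0.0024). In such bulk libraries, fewer cells with a transcript and less of it per cell cannot be told apart. No exon of *CRKL* overlaps one of another gene of the table.

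The genes around *CRKL* were not called. *SNAP29*, a SNARE protein of vesicle and autophagosome fusion, ends 26.2 kb before *CRKL* and had a log2 fold change of 0.02 (95% interval -0.17 to 0.21). *LZTR1*, the substrate adaptor of a ubiquitin ligase for RAS proteins, starts 28.5 kb after it and had -0.11 (-0.33 to 0.12). Between them lies *AIFM3*, 11.4 kb after *CRKL*, which had too few counts to be tested. *PI4KA*, the kinase that makes phosphatidylinositol 4-phosphate at the plasma membrane, had 4604, 4238 and 4395 normalized counts in the knockdown cultures and 4108, 4137 and 3850 in the control cultures. The groups did not overlap, but the difference of 0.13 was not called (SE 0.08, edgeR adjusted p = 0.35). *THAP7*, a zinc finger transcriptional regulator, had -0.07 (-0.36 to 0.23).

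Promoters are shown for *CRKL*, the called member, for *RTN4R*, the uncalled member with the largest change, and for *SNAP29*, the neighbor of *CRKL* with almost no change. Each runs from 250 bases before to 50 bases after a RefSeq start site on GRCh38.p14, 5′ to 3′ on the strand of the gene. Positions count from the start site and name the first base of a match. Capitals mark the matches to 8 short motifs searched on both strands: TTTCCCGC and TTTGGCGC (E2F), CCGGAAG (ETS), CCCGCCC (SP), CCAAT (NFY), GCGCA and GCGC with 1 base between them (NRF1), AAGATGGC (YY1) and TGACGTCA (CRE). The E2F word TTTCCCGC ends in letters with which the SP word begins, so the matches of both can share bases.
CRKL, chr22:20917157-20917456, plus strand: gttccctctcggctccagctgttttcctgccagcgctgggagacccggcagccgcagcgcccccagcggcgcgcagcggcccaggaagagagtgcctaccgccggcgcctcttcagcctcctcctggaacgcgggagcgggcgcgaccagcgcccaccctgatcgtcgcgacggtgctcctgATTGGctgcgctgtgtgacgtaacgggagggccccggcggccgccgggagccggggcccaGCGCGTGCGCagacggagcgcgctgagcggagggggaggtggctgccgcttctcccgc
RTN4R, chr22:20268269-20268568, minus strand: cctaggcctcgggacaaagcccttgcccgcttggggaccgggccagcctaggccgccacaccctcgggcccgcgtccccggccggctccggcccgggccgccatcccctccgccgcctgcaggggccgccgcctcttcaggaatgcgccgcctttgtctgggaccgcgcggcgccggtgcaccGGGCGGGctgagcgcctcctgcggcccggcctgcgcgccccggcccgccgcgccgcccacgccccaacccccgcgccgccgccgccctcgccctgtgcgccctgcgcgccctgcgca
SNAP29, chr22:20858757-20859056, plus strand: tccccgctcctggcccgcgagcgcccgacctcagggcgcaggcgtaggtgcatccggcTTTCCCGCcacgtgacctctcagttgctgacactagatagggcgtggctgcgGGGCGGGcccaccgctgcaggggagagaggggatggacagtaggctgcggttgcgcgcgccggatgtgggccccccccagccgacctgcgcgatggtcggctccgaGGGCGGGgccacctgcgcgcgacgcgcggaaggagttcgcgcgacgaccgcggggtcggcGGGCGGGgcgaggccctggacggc
The *CRKL* window held a CCAAT match at -68 and an NRF1 match at -8, both on the opposite strand of the gene. The *RTN4R* window held an SP match at -67, and its start site lies inside the longer gene that GENCODE gives. The *SNAP29* window held an E2F match at -192 and 3 SP matches. It shares 295 bases with the window of *PI4KA*, which is read in the opposite direction from a start site 196 bases away. GC content was 74.7% in the *CRKL* window, 82.0% in that of *RTN4R* and 75.3% in that of *SNAP29*.

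RefSeq promoter entries were matched to 31 of the 38 members, 37 entries in all. The members without an entry were *PRODH*, *UFD1L*, *CLDN5*, *TRMT2A*, *RANBP1*, *P2RX6* and *SLC7A4*. The median GC content was 71.3% over the 37 entries and 58.7% over all 35116. The SP word was held by 64.9% of the members' entries and 33.1% of all entries. The NRF1 word was held by 18.9% and 5.8%, the E2F word TTTCCCGC by 10.8% and 1.6%, and the ETS word by 16.2% and 10.3%. CCAAT was held by 32.4% of the members' entries and 34.6% of all. TTTGGCGC was held by 5.4% and 0.7%, the YY1 word by 2.7% and 2.9%, and the CRE word by 2.7% and 1.8%. Entries can repeat the same bases. Both members' entries with TTTGGCGC are windows of *TANGO2* that hold 1 and the same site, and *GNB1L* and *C22orf29* share 1 window, which holds an NRF1 match. The windows of *TANGO2* also hold the same ETS site, and those of *SNAP29* and *PI4KA* hold the same TTTCCCGC site. SP and CCAAT sites are repeated as well, as in overlapping windows of *CDC45* and *TANGO2*. The shares count every entry. A match is only a run of letters and does not show that a factor binds there.

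*RTN4R* encodes the Nogo receptor, a surface protein through which myelin proteins such as RTN4 restrain axon growth. It had 159, 112 and 137 normalized counts in knockdown replicates 1 to 3 and 234, 329 and 157 in control replicates 1 to 3. The groups overlapped, since knockdown replicate 1 lay just above control replicate 3. It had a log2 fold change of -0.82 (SE 0.24, 95% interval -1.36 to -0.29), the most negative of the members. Its adjusted p was 0.056 in edgeR, and it was called lower under 5 of 13 alternatives, with adjusted p from 0.0054 to 0.20 over all of them. Without control replicate 2, its highest culture, it had -0.52 and an edgeR adjusted p = 0.082.

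*GNB1L*, a WD40 repeat protein, was low in all libraries, with 94.5, 80.3 and 103 normalized counts in the knockdown cultures and 122, 176 and 111 in the control cultures. The groups did not overlap, but the highest knockdown and lowest control cultures were close. The log2 fold change was -0.56 (SE 0.21, edgeR adjusted p = 0.11), and it was -0.33 without control replicate 2, its highest culture (edgeR adjusted p = 0.25). *TBX1* had 504, 487 and 494 normalized counts in the knockdown cultures and 548, 926 and 479 in the control cultures. Control replicate 2 alone stood high, while the other 2 control cultures lay on either side of the knockdown values. The log2 fold change of *TBX1* was -0.40 (95% interval -0.87 to 0.07, edgeR adjusted p = 0.26), and it was -0.05 without control replicate 2. When each library was adjusted for the GC content and length of transcripts, *TBX1* had -0.34 and *GNB1L* -0.58, and both were called lower (edgeR adjusted p = 0.014 and 0.037). With this adjustment 1523 of all 14877 genes tested were called lower, against 690 in the main test. *TBX1* and *GNB1L* lie on opposite strands and share 280 bases of exon, which are 7.1% of those of *TBX1*.

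**Figure D2:**
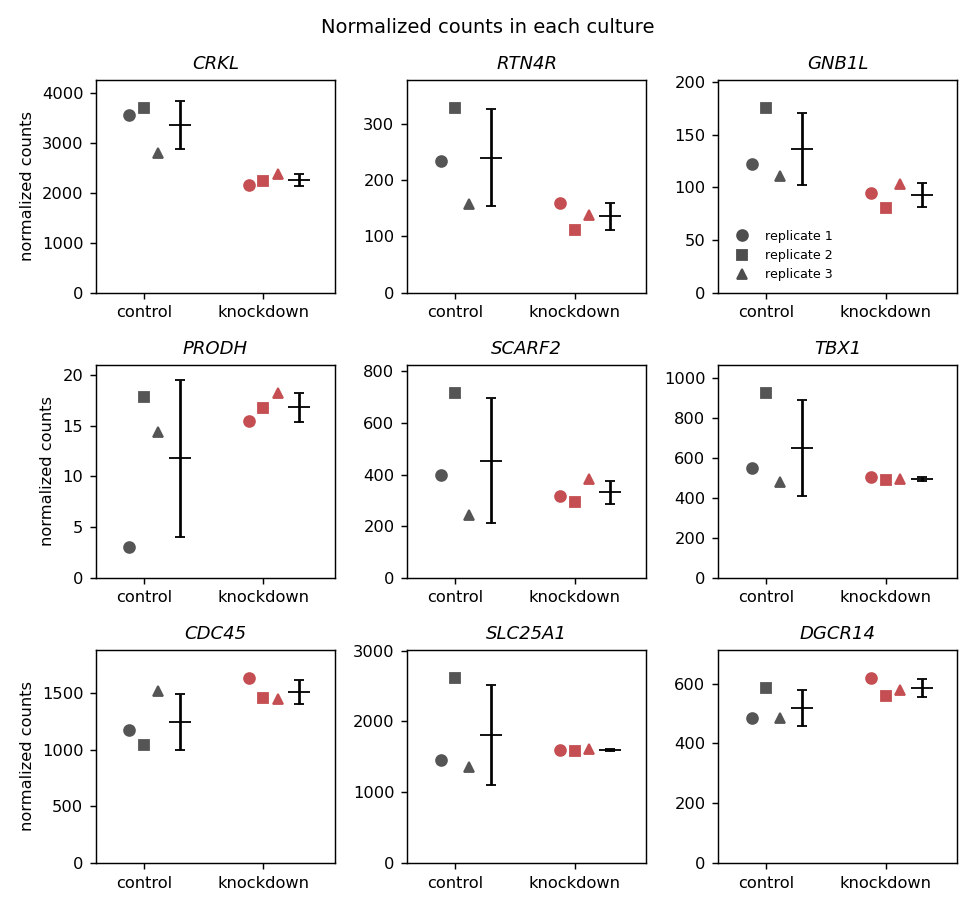
Normalized counts are plotted for each culture of *CRKL* and the 8 uncalled members with the largest change, with the mean and SD of each group (n = 3) beside the points. *CRKL* and *GNB1L* show no overlap between groups, and control replicate 2 stands above the other cultures for *RTN4R*, *GNB1L*, *SCARF2*, *TBX1* and *SLC25A1*.

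Among the other cell surface and adhesion genes, *SCARF2*, a scavenger receptor family protein, varied most between control cultures. Its normalized counts were 400, 718 and 244 in control replicates 1 to 3 and 317, 293 and 382 in the knockdown cultures. All knockdown cultures lay between the lowest and the highest control culture. *SCARF2* had a log2 fold change of -0.46 (SE 0.35, edgeR adjusted p = 0.44) and 0.04 without control replicate 2. *DGCR2*, an adhesion receptor-like protein, had -0.04 (95% interval -0.25 to 0.18), and *ARVCF*, a catenin of adherens junctions, had -0.12 (-0.45 to 0.21).

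*CDC45* loads with the MCM and GINS proteins to form the replicative helicase. It had 1636, 1459 and 1445 normalized counts in the knockdown cultures and 1175, 1043 and 1522 in the control cultures. Control replicate 3 lay among the knockdown values, and the other 2 control cultures lay below them. The difference on the log2 scale was 0.28 (SE 0.13, edgeR adjusted p = 0.20), and *CDC45* was called higher without control replicate 3, with 0.45 and an edgeR adjusted p = 0.022. *RANBP1*, which assists the GTPase RAN in nuclear transport, had 0.01 (95% interval -0.30 to 0.33). *UFD1L*, a cofactor of the unfoldase VCP, had -0.07 (-0.31 to 0.16). *KLHL22*, a substrate adaptor of a cullin ubiquitin ligase, had -0.16 (-0.41 to 0.09).

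None of the 4 tested mitochondrial and metabolic members was called by edgeR or at an unadjusted p under 0.05, nor by DESeq2 or limma-voom. *SLC25A1*, which exports citrate from mitochondria, had 1594, 1580 and 1612 normalized counts in the knockdown cultures and 1454, 2618 and 1350 in the control cultures. The knockdown cultures differed by an SD of only 16.0, and control replicate 2 stood far above all other cultures. *SLC25A1* had a log2 fold change of -0.18 (SE 0.23, edgeR adjusted p = 0.66) and 0.19 without control replicate 2. *PRODH*, the first enzyme of proline breakdown, was barely detected, with 15.4, 16.7 and 18.2 normalized counts in the knockdown cultures and 3.06, 17.9 and 14.4 in the control cultures. Control replicate 1 alone was low, and the log2 fold change of 0.49 had a 95% interval from -0.58 to 1.55 (edgeR adjusted p = 0.56). It was 0.0494 without control replicate 1 and 0.93 without control replicate 2. *TXNRD2*, the mitochondrial thioredoxin reductase, had -0.08 (-0.40 to 0.24) and *TANGO2* had 0.05 (-0.22 to 0.32).

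The 7 tested members that act in transcription, chromatin or RNA ran from -0.40 for *TBX1* to 0.18 for *DGCR14*. *DGCR14*, the older symbol of *ESS2*, a spliceosome-associated protein, had 620, 559 and 580 normalized counts in the knockdown cultures and 484, 586 and 484 in the control cultures. Control replicate 2 lay among the knockdown values (log2 fold change 0.18, SE 0.12, edgeR adjusted p = 0.36). *HIRA*, the chaperone that deposits histone H3.3, had -0.09 (95% interval -0.30 to 0.12). It shares 2857 bases of exon with *C22orf39* on the same strand, 66.5% of its own, so how its reads were assigned is uncertain. *MED15*, a subunit of the Mediator tail, had -0.10 (-0.35 to 0.14). *TRMT2A*, a tRNA methyltransferase, had -0.02 (-0.27 to 0.24), and *ZNF74*, a zinc finger protein, had 0.13 (-0.21 to 0.46).

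In membrane traffic, *CLTCL1*, the second clathrin heavy chain, had a log2 fold change of 0.01 (95% interval -0.23 to 0.25), and *ZDHHC8*, a palmitoyltransferase, had 0.03 (-0.24 to 0.30). *C22orf29*, the older symbol of the retrotransposon-derived gene *RTL10*, had 935, 917 and 973 normalized counts in the knockdown cultures and 843, 776 and 898 in the control cultures. Its groups did not overlap, and the difference of 0.17 was not called (SE 0.10, edgeR adjusted p = 0.31). *C22orf39* had -0.05 (-0.31 to 0.21), but it shares 2857 bases of exon with *HIRA* on the same strand, 43.9% of its own, so how reads were split between them is uncertain. *DGCR6L* had 0.04 (-0.22 to 0.31). Its near-identical paralog *DGCR6* took only 0.475% to 3.13% of the counts of the pair and was not tested. Summed as 1 feature, both had a log2 fold change of 0.03 (SE 0.12, edgeR adjusted p = 0.89).

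The 9 members below the filter on low counts were *DGCR6*, *TSSK2*, *GSC2*, *CLDN5*, *GP1BB*, *SERPIND1*, *AIFM3*, *P2RX6* and *SLC7A4*. None of them exceeded 25 counts in any culture. *CLDN5*, a tight junction protein of endothelium, had 48 counts over the 6 cultures, *AIFM3* 26, *P2RX6*, a subunit of ATP-gated channels, 14, and *SERPIND1*, a thrombin inhibitor made by liver, 13. *SLC7A4* had 5 counts and *GSC2*, a homeobox gene, 3. *TSSK2*, a kinase of testis, and *GP1BB*, a platelet receptor subunit, had 0 in every culture, which allows a level of up to 0.178 to 0.216 CPM, the usual unit of counts relative to the library total, by counting error alone. The exons of *TSSK2* lie wholly within those of *DGCR14* on the opposite strand, and 43.0% of the exon bases of *GP1BB* lie within *SEPT5* on the same strand.

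Levels were compared between genes as CPM divided by the length of the canonical transcript in kilobases. The order depends on this choice, since the annotation behind the counts was not given. *RANBP1* has 1221 bases in the canonical transcript and 4620 over all its GENCODE exons. *UFD1L* has 1791 and 8722, whereas *CRKL* has 5342 in both. In the control cultures *RANBP1* was highest at 205 ± 49.2 (SD, n = 3), followed by *SLC25A1* at 77.6 ± 30.2, *CDC45* at 44.1 ± 8.74, *UFD1L* at 42.9 ± 5.07 and *CRKL* at 41.8 ± 6.04. *RANBP1* and *SLC25A1* were each separate from the next gene in all control cultures, whereas *CDC45*, *UFD1L*, *CRKL* and *PI4KA* overlapped in turn. Of the 28 neighbouring pairs among the tested members in this order, 22 overlapped over the control cultures. *TBX1* stood at 21.1 ± 7.81, *RTN4R* at 8.21 ± 2.95, *GNB1L* at 1.37 ± 0.346 and *PRODH* at 0.355 ± 0.233. In the knockdown cultures *CRKL* stood at 28.1 ± 1.40 on the same scale. Summed over all 38 members, the CPM were 1993 to 2132 in the knockdown cultures and 1955 to 2429 in the control cultures, with control replicate 2 the highest.

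**Figure D3:**
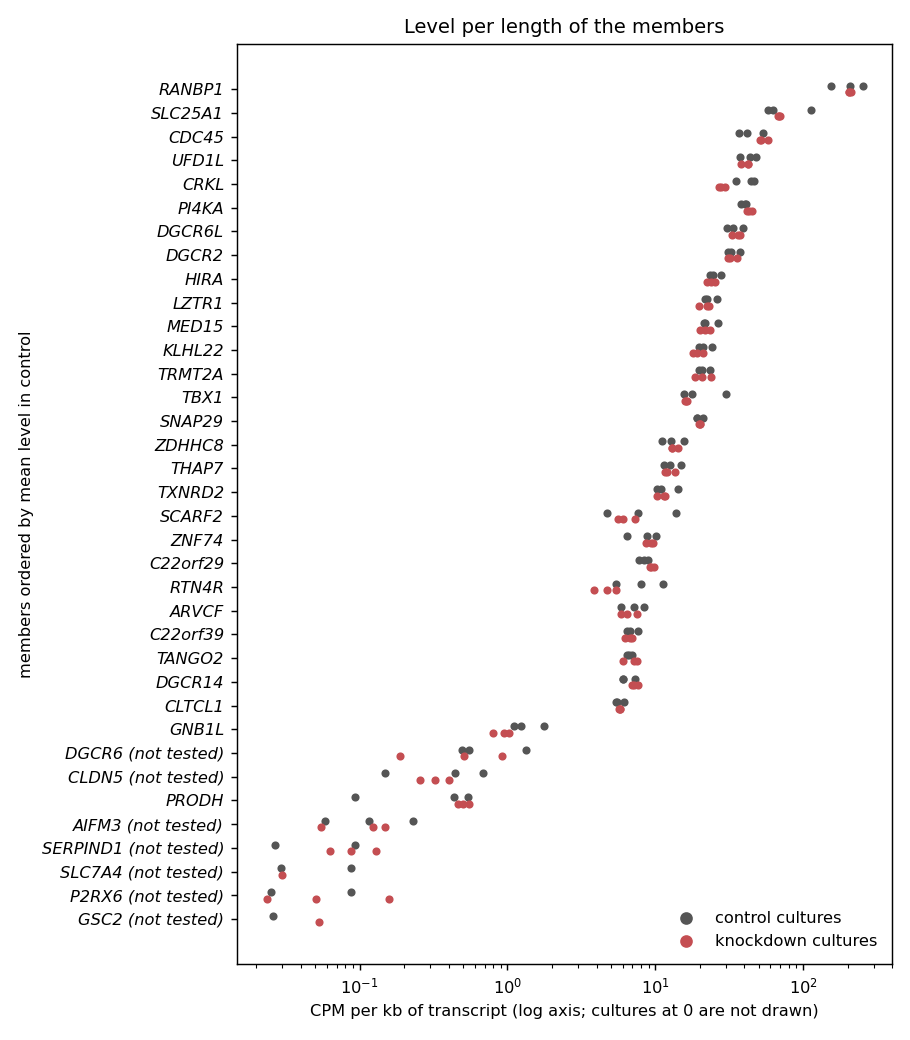
CPM per kilobase of transcript are plotted on a log axis for the 36 members with a count in the control cultures, ordered by the control mean, with 1 point for each culture. Levels run from about 205 for *RANBP1* to members that were hardly detected, and *CRKL* is displaced to the left in the knockdown cultures.

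Control replicate 2 stood apart for the members. It held the highest value of the 6 cultures for 21 of the 29 tested members, beside 27.0% of all genes tested. Measured as log2 of the normalized count plus 1 against the mean of the 6 cultures, the median deviation of the members was 0.22 in control replicate 2 and from -0.06 to 0.05 in the other 5 cultures. The members are rich in GC, with a median transcript GC content of 60.3% against 48.6% over the tested genes with a matched transcript, and 16 of 29 are among the 20% of genes with the highest GC content. These GC-rich genes had a median deviation of 0.22 in control replicate 2 as well, and of -0.10 and -0.12 in control replicates 1 and 3. *SCARF2*, *RTN4R*, *TBX1*, *SLC25A1* and *GNB1L*, which deviated most in control replicate 2, are among the 16. *CRKL*, at 49.2% GC, is not among the 16, and its deviation in control replicate 2, its highest culture, was 0.44. The SD was larger in the control than in the knockdown group for 26 of the 29 members and for 72.7% of all genes tested.

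**Figure D4:**
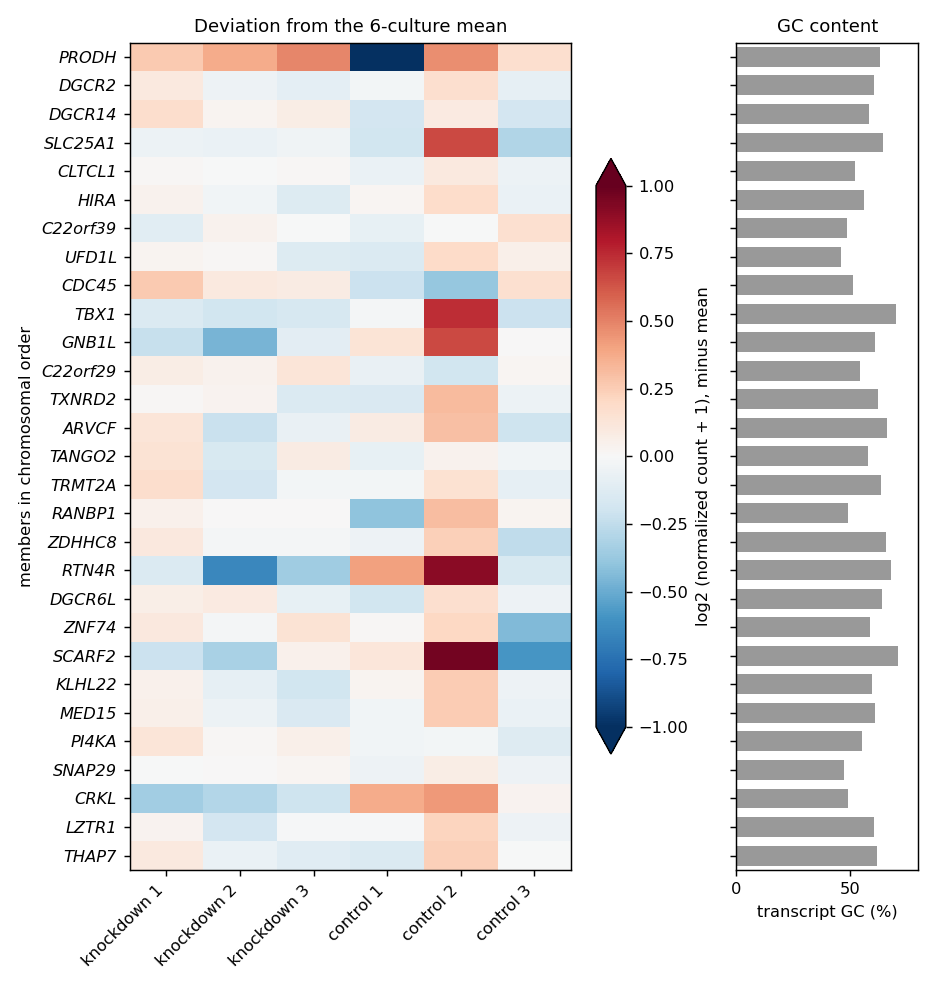
Each cell gives the deviation of 1 member in 1 culture from its mean over the 6 cultures, as log2 of the normalized count plus 1, with bars for transcript GC content in percent. The column of control replicate 2 is above 0 for 25 of 29 members, *CRKL* is below 0 in all knockdown cultures, and the value of *PRODH* in control replicate 1 (-1.75) is beyond the color scale.

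Of the 19 other genes of the table inside the interval, 9 were tested and none was called by edgeR, with 0 at an unadjusted p under 0.05 and 0 under each alternative. *DGCR8*, which cuts primary microRNAs together with DROSHA, had a log2 fold change of 0.05 (95% interval -0.13 to 0.23). *MRPL40*, a mitochondrial ribosomal protein, had -0.12 (-0.42 to 0.19). The lncRNA *DGCR5* had -0.38 (-0.84 to 0.09), and *THAP7-AS1*, which shares 311 bases of exon with *THAP7* on the opposite strand, had 0.52 (SE 0.27).

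A list of 72 genes that act with members in a complex or pathway was read in the same fit, and 69 were tested. Of these, 4 were called lower (5.80%) and 6 higher (8.70%), beside 4.64% and 5.40% of all genes. The list was chosen with earlier results of these data known, so these shares are no result about the partners as a group. Among 10 partners of *CRKL*, 2 exchange factors that bind SH3 domains of the CRK family rose. *RAPGEF1*, an exchange factor for RAP1, had 2780, 2623 and 2647 normalized counts in the knockdown cultures and 1810, 1708 and 2082 in the control cultures (log2 fold change 0.52, edgeR adjusted p = 0.0063). *DOCK1*, an exchange factor for RAC1, had 2274, 2316 and 2095 in the knockdown cultures and 1570, 1333 and 1598 in the control cultures (0.57, edgeR adjusted p = 0.0044). Neither gene showed overlap between groups. *CRK*, the paralog of *CRKL*, had a log2 fold change of 0.01 (95% interval -0.24 to 0.25), and the other 7 partners of *CRKL* were not called.

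*RTN4*, the ligand of the Nogo receptor, fell, with 1908, 2219 and 2141 normalized counts in the knockdown cultures and 3135, 3455 and 3090 in the control cultures (log2 fold change -0.63, edgeR adjusted p = 0.0020). *EFR3A*, which anchors PI4KA at the plasma membrane, fell from 1535 ± 157 to 925 ± 82.9 (SD, n = 3 each), a log2 fold change of -0.73 (edgeR adjusted p = 0.0020). Of the partners of *HIRA*, *CABIN1*, a subunit of its complex, rose from 2063 ± 28.03 to 2900 ± 149 (0.49, edgeR adjusted p = 0.0043). *H3F3B*, which encodes the histone H3.3 that HIRA deposits, fell from 11013 ± 457 to 7864 ± 123 (-0.49, edgeR adjusted p = 0.0048). *H3F3A*, which encodes the same histone, is listed at 0 in every culture. The gene annotation and the handling of multi-mapping reads were not given, so this 0 does not show that its transcript was absent. The other called partners were *GINS1*, lower, and *GINS2*, *MED29* and *ACACA*, higher, and these 4 were named after their values were seen. *GINS1* and *GINS2* belong to the same complex, which works with *CDC45*, and moved in opposite directions. The call of *GINS1* was lost without knockdown replicate 2 or 3 (edgeR adjusted p = 0.081 and 0.071). The calls of *GINS2*, *MED29* and *ACACA* were lost without any 1 of the knockdown cultures or control replicate 1, with edgeR adjusted p from 0.054 to 0.14. *GINS2* was also not called with the replicate block (edgeR adjusted p = 0.085).

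All 8 marker genes of HEK293 (*PAX2*, *LHX1*, *VIM*, *KRT8*, *KRT18*, *NEFL*, *NEFM* and *ENO2*) were detected in every culture. Of the blood, liver, fibroblast and muscle markers, *HBB*, *CD3E* and *TTR* were at 0 and *PTPRC*, *ALB*, *APOA1*, *DCN* and *MYH1* at 0 to 6.44 normalized counts. The fibroblast markers *COL1A1* (587 to 750 normalized counts), *COL3A1* (8.93 to 74.1) and *LUM* (5.36 to 16.1) and the muscle markers *ACTA1* (4.46 to 25.04) and *DES* (5.22 to 19.6) were detected in every culture. Total counts per culture ran from 13900965 to 16869948.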

How the data were processed

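The authors deposited 1 table of whole-number counts of reads per gene for 6 HEK293 cultures, without normalization. Per the labels and the study's methods, reads of stranded mRNA libraries were checked with FastQC 0.11.9, trimmed with Trim Galore 0.6.6, cleared of ribosomal RNA, aligned with STAR to hg38 and counted with featureCounts. The labels and the methods differ in the versions of STAR and featureCounts. The gene annotation, the strand setting and the handling of multi-mapping reads were not given in the sources used here.

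Genes were filtered with filterByExpr (14877 kept), normalized by TMM and tested in R 4.3.3 with the quasi-likelihood test of edgeR 4.0.16 (robust setting, Benjamini-Hochberg over all genes tested). Counts were scaled to the mean of the TMM-adjusted library sizes (normalized counts). The biological coefficient of variation was 12.4%. Names were matched to GENCODE release 44, 23161 by symbol, 1327 by synonym and 1997 not at all. Alternatives were DESeq2 size factors, testing without a filter, a minimum of 10 counts in each culture, the DESeq2 1.42.0 Wald test, limma-voom (limma 3.58.1), a correction for GC content and transcript length (loess, span 0.3, 97.2% of tested genes with a value), a replicate block, leaving out each culture, and *DGCR6* with *DGCR6L* as 1 feature. The edgeR test was tested on simulated counts. Members, partner lists and markers were chosen with earlier results of these data known. The named genes were all members, with each culture's value for called members and the 8 uncalled ones with the largest change, and at most 6 called partners by smallest p. Beyond this rule, the culture values of *PI4KA* and *C22orf29* and the names of 4 further called partners were added after their values were seen. Figures were drawn with matplotlib 3.10.9. Single results of 2 genes are not reported here.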

Additional observations from a re-analysis of the deposited data

How the results depend on the processing

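Of 29 tested members, 24 were called in neither the main test nor any of the 13 alternatives that kept them, and 12 kept their sign throughout. The number of members called lower, 1 in the main test (*CRKL*), was 2 without a filter, 2 with the DESeq2 Wald test, 2 with the replicate block (in each case *CRKL* and *RTN4R*), 4 after the correction for GC content and length (with *TBX1* and *GNB1L*), and 0 to 2 when a culture was left out. The number called higher, 0 in the main test, was 0 to 1 when a culture was left out, the 1 being *CDC45* without control replicate 3. Partners called lower numbered 8 after the GC correction, against 4 in the main test, and 3 to 8 with a culture left out. Partners called higher numbered 9 after the GC correction, against 6 in the main test, and 3 to 8 with a culture left out. Over all 21131 genes with at least 1 count, 848 were lower and 879 higher without a filter, and 831 and 900 with the DESeq2 Wald test. The DESeq2 test can leave genes of low count without an adjusted p. After the GC correction 1523 genes were lower and 1369 higher, against 690 and 804 in the main test, of 14877 tested in each. Beside these counts, the 4 members lower after the correction are no result about the interval as a group. With a culture left out, 233 to 1238 genes were lower and 289 to 1274 higher. The cause was not tested. Same-numbered cultures had correlations of their deviations from -0.20 to -0.04, and differently numbered ones from -0.07 to 0.16. The replicate numbers thus showed no pairing in these values. With 3 cultures per group this cannot show that the cultures were handled apart. With the replicate block 619 genes were lower and 714 higher.

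For 15 members the sign changed only when a culture was left out. The ranges of their log2 fold changes were -0.10 to 0.0420 for *DGCR2*, -0.35 to 0.19 for *SLC25A1*, -0.10 to 0.0261 for *C22orf39*, -0.16 to 0.0117 for *UFD1L*, -0.18 to 0.0751 for *TXNRD2*, -0.24 to 0.0080 for *ARVCF*, -0.0126 to 0.14 for *TANGO2*, -0.12 to 0.0632 for *TRMT2A*, -0.15 to 0.19 for *RANBP1*, -0.0706 to 0.17 for *ZDHHC8*, -0.0359 to 0.15 for *DGCR6L*, -0.0288 to 0.28 for *ZNF74*, -0.75 to 0.0376 for *SCARF2*, -0.16 to 0.0080 for *MED15* and -0.15 to 0.0454 for *THAP7*. *CLTCL1* (-0.0178 to 0.0672) and *SNAP29* (-0.0042 to 0.0572) changed sign when a culture was left out and also after the GC correction (-0.0365 and -0.0192). The standard errors of the members ran from 0.08 for *PI4KA* to 0.48 for *PRODH* at 13900965 to 16869948 counts per culture, and 9 members had too few counts to be tested.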
